A study of Homo sapiens with 15 samples.

Results

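The genes described here encode secreted and membrane-bound proteases that cut the extracellular matrix, together with the plasminogen activators, their receptor and an inhibitor. They are MMP1, MMP2, MMP9, MMP10, MMP14, PLAU, PLAUR, PLAT and SERPINB2, taken by name from a list, and make up 9 of the 60721 genes in the count and CPM tables. That list and the other gene lists below were chosen with earlier results of these data known. Counts of called genes are therefore set beside the share of all tested genes as a description only. Poly(A) RNA was sequenced from MCF-10A, a non-tumorigenic human mammary epithelial cell line, in 15 libraries. The libraries form 5 genotypes of 3 biological replicates: parental cells (labelled Parental), cells with an empty vector (EV), and 3 lines in which NF1 was targeted by guide RNA 1 (NF1-g1), guide RNA 2 (NF1-g2) or both guides (NF1-g1/g2). The product of NF1, neurofibromin, speeds the return of RAS to its inactive GDP-bound state. Every genotype was untreated and grown in the same medium, with 10% horse serum, 20 ng/mL EGF, 0.5 µg/mL hydrocortisone, 100 ng/mL cholera toxin and 10 µg/mL insulin, so EGF receptor signalling was stimulated in all groups. The labels do not say whether an edited line is a clone or a pool, and each line is therefore treated as 1 line with 3 libraries. Nor do they say how far apart the replicate cultures were, so the p-values measure the spread between these libraries.

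Matrix metalloproteinases are zinc enzymes made as inactive precursors and held in check by the TIMP proteins. MMP14 is anchored in the cell membrane and activates the precursor of MMP2; MMP2 and MMP9 are gelatinases that cut basement membrane collagen, MMP1 is a collagenase of fibrillar collagen, and MMP10 is a stromelysin with a broad range of matrix substrates. PLAU (urokinase) and PLAT (tissue plasminogen activator) convert plasminogen to plasmin, PLAUR is the surface receptor that holds urokinase at the cell edge, and SERPINB2 is an inhibitor of both activators. Several of these genes are classic targets of AP-1 and ETS factors downstream of RAS and ERK signalling.

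Upstream sequences are shown because RAS-responsive AP-1 and ETS elements have been described in promoters of this family. RefSeq windows (GRCh38.p14) were at hand for 5 of the 9 genes: MMP10, MMP14, PLAU, PLAUR and SERPINB2. The 250 bases before each start were searched for TGANTCA (the AP-1 letters, both strands), AGGAAG (letters found in ETS sites, both strands) and TATAAA (gene strand), and matches are shown in capitals, 5′ to 3′ on the gene's strand. For printing, each window was cut before its first base inside an exon of the GENCODE 29 annotation. All bases from there on were left out, which shortened 3 of the windows printed here.
MMP10 (minus strand), chr11:102780629-102780878: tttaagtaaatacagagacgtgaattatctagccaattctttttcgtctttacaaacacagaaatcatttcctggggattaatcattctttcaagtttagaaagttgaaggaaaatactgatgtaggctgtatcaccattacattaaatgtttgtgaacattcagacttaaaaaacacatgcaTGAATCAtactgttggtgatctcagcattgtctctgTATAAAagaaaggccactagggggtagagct
SERPINB2 (plus strand), chr18:63887455-63887699: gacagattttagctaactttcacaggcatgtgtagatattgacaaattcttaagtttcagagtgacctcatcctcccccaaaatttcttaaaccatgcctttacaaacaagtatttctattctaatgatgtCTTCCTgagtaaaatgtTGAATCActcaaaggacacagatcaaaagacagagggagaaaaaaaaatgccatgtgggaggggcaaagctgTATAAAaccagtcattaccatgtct
PLAU (plus strand), chr10:73910882-73911103: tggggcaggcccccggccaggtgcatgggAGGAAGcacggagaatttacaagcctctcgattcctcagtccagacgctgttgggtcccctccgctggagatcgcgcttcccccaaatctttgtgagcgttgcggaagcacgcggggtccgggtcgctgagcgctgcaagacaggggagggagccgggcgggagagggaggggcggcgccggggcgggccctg
MMP14 (plus strand), chr14:22836335-22836556: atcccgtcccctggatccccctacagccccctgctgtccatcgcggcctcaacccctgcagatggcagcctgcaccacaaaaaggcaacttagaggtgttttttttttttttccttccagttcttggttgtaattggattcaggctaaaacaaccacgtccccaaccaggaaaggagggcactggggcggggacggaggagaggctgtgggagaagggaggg

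In MMP10 the TGANTCA match began 67 bases before the start and the TATAAA match 31 bases before it. In SERPINB2 the TGANTCA match began 102 bases before the start, an AGGAAG match on the opposite strand (printed as CTTCCT) 119 bases before it, and TATAAA 30 bases before it. The PLAU window upstream of the second of its RefSeq starts held AGGAAG 221 bases before that start, and the window before its other start (chr10:73910360-73910604, not printed) held none of the 3 motifs. The PLAUR window held a TGANTCA match 186 bases and an opposite-strand AGGAAG match 15 bases before the start. Its first base lies inside an annotated exon, so the window is not printed. The MMP14 window held none of the 3. Over all 35116 windows of that length, 6.57% held TGANTCA, 28.7% AGGAAG and 6.80% TATAAA, so that a match to AGGAAG is common, and a match is a description of letters only.

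Library totals ranged from 46129559 to 78976917 counts. NF1 was at 26.0 to 51.3 CPM (the gene's counts as a share of the library's counts, scaled as the authors deposited it) in the 9 edited libraries and at 115 to 159 CPM in the 6 others. Each library thus went with its label as edited or not edited. NF1 cannot tell all the edited lines apart, as guide 2 and both guides overlapped (means 29.4 and 28.1 CPM). Within a genotype, 24.6% to 76.8% of genes with enough counts differed between replicates beyond sampling noise, and no library appeared to be a copy of another. Some libraries stood apart from their replicates. Guide 2 replicate 2 had summed mammary epithelial markers (10 genes) of 13650 CPM against 2198 and 2311 in the other guide 2 libraries, and empty-vector replicate 3 had 12290 against 6732 and 7029. The same sum was 2127 to 2268 CPM in guide 1, 4236 to 4850 in the line with both guides and 8107, 2700 and 6407 in parental replicates 1 to 3, so that parental replicate 2 stood apart as well. By the same unadjusted measure, guide 1 replicate 3 differed from the other guide 1 libraries at 58.3% and 61.7% of genes, against 29.3% between those 2. Epithelial markers were low in every guide 1 library. There CDH1 (E-cadherin) was between 0.0191 and 0.158 CPM and TP63, a basal epithelial factor, between 0.142 and 0.203 CPM. In empty-vector cells they were at 44.1 to 127 and 41.4 to 68.0 CPM. Guide 2 replicates 1 and 3 were about as low in the epithelial sum, and their CDH1 (0.0361 and 0.0434 CPM) lay within the guide 1 range. In guide 2 replicate 2 CDH1 was at 91.4 CPM. Summed fibroblast markers (8 genes, 4 of them under 1 CPM in every library) were 437 to 1105 CPM in guide 1, nearly all from DCN, and 103 to 146 in empty-vector cells, while leukocyte markers (6 genes, 4 under 1 CPM throughout) summed to 6.02 to 16.3 and endothelial markers (5 genes, 3 under 1 CPM throughout) to 3.00 to 13.4. The part of these differences in the results below was not tested, and in bulk RNA fewer expressing cells and less RNA per cell cannot be told apart.

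Expressed per kilobase of merged exon over all libraries, MMP14 was the most abundant of the 9 transcripts at 36.1 CPM per kb, followed by PLAU at 26.7, PLAT at 14.1, MMP2 at 11.8 and PLAUR at 5.87. The remaining 4 were scarce: MMP9 stood at 0.747, SERPINB2 at 0.587, MMP10 at 0.112 and MMP1 at 0.0769 CPM per kb. MMP1 amounted to 123 counts and MMP10 to 160 counts over the 15 libraries together. All 9 genes passed the filter on low counts, but MMP1 reached its level of 0.179 CPM in 4 libraries (the 3 empty-vector libraries and guide 2 replicate 2) and MMP10 in 4 (the 3 empty-vector libraries and parental replicate 3). These genes entered the test mainly because they were high in empty-vector cells, so their calls against that group support nothing about the set.

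PLAU had the lowest adjusted p of the 9 genes, followed by MMP14, and both were lower in the single-guide lines than in empty-vector cells; the scarce MMP9, MMP10 and MMP1 had larger fold changes from far fewer counts. In the test of any difference among the 5 genotypes, 4 of the 9 genes passed an adjusted p under 0.05 in edgeR, namely PLAU, MMP14, MMP9 and MMP10, against 4.30% of all 17457 genes tested. MMP1 had an edgeR adjusted p of 0.0552 and SERPINB2 of 0.213. MMP2, PLAT and PLAUR gave 0.447, 0.458 and 0.535. The library values of all 9 genes, plotted by genotype, show the highest mean in empty-vector cells in 8 of them, and the lowest for MMP2. PLAUR (27.9 CPM, 27.4 in guide 2) and PLAT (112.4 CPM, 110.7 in guide 1) were near ties. Only for MMP1, MMP10 and MMP14 did the empty-vector libraries not overlap those of the next genotype. Without empty-vector replicate 3, guide 2 was above empty vector for PLAUR (log2 fold change 0.13) and SERPINB2 (0.13). The share of all tested genes highest in empty-vector cells is not given here.

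**Figure D1:**
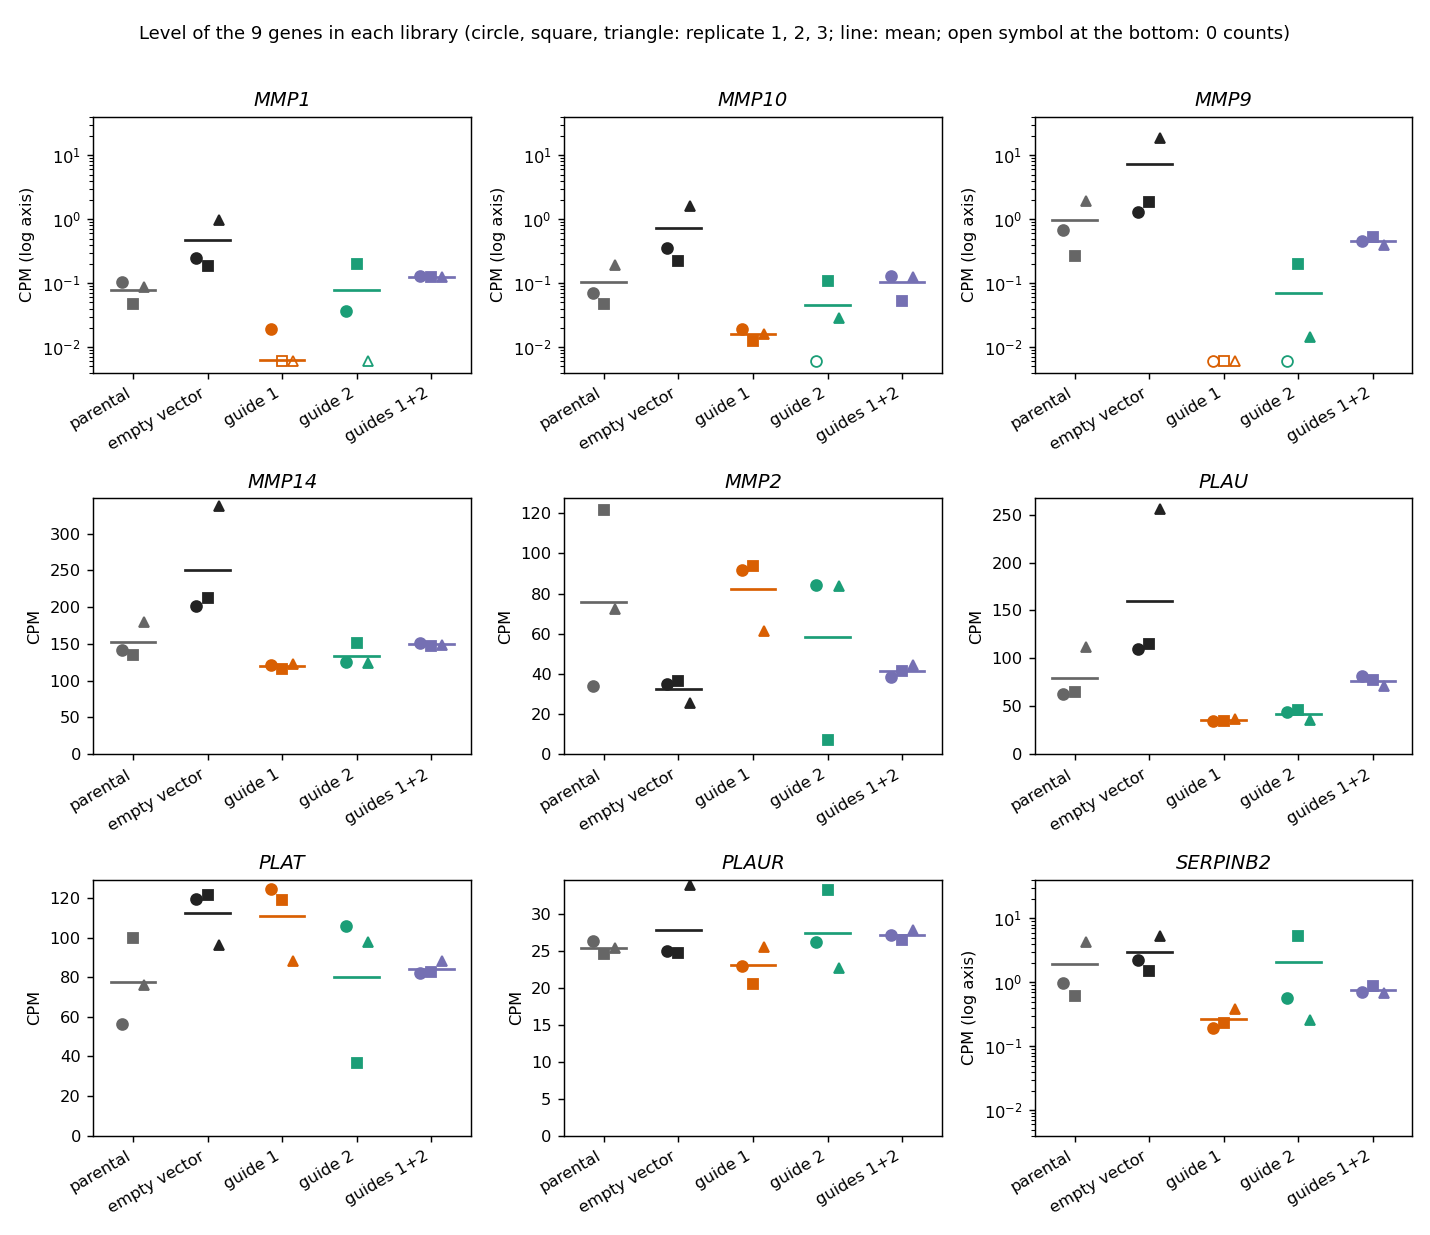
Level of each gene in the 15 libraries, in CPM, by genotype (linear axes for MMP14, MMP2, PLAU, PLAT and PLAUR, log axes for the 4 scarce genes). Symbols mark replicates 1, 2 and 3, lines the genotype mean, and open symbols at the bottom libraries with 0 counts. Empty-vector replicate 3 is the highest library for PLAU (255.9 CPM) and MMP14 (337.1 CPM), and guide 2 replicate 2 the lowest for MMP2 (7.30 CPM) and PLAT (36.8 CPM).

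MMP14, the membrane-anchored activator of MMP2, lies at chr14:22836557-22849027 on the plus strand (GENCODE 29, GRCh38). Empty-vector replicates 1 to 3 had 201.2, 212.6 and 337.1 CPM, and the parental libraries 142.3, 135.3 and 179.7. The guide 1 libraries had 120.8, 115.7 and 122.3 CPM, those of guide 2 had 125.9, 151.7 and 124.2, and those with both guides 151.4, 147.7 and 148.8. Every empty-vector library was thus above every other library, and guide 1 lay below each of the other genotypes without overlap. The genotype means were 250.3 ± 75.4 CPM in empty-vector cells, 152.4 ± 23.9 in parental, 149.3 ± 1.92 with both guides, 133.9 ± 15.4 in guide 2 and 119.6 ± 3.47 in guide 1 (SD, n = 3 each). Against empty vector, the log2 fold change was -1.08 (SE 0.173, edgeR adjusted p = 0.00577) in guide 1 and -0.92 (SE 0.172, edgeR adjusted p = 0.0130) in guide 2. Parental cells, which carry no edit, were lower than empty-vector cells too, at -0.75 (SE 0.172, edgeR adjusted p = 0.0291). The line with both guides gave -0.77 (SE 0.172) and missed the threshold with an edgeR adjusted p of 0.0554.

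MMP2, the gelatinase that MMP14 activates, lies at chr16:55389700-55506691 on the plus strand. Its libraries were spread widely within genotypes: parental cells had 34.1, 121.8 and 72.3 CPM, and guide 2 had 84.2, 7.30 and 83.7. Empty-vector cells had 35.0, 36.6 and 25.5 CPM, guide 1 had 91.9, 93.8 and 61.4, and the line with both guides 38.6, 41.2 and 44.2. The 3 guide 1 libraries were all above the 3 empty-vector libraries, while guide 2 and parental cells overlapped with them. The log2 fold change of guide 1 against empty vector was 1.34 (SE 0.637), with an edgeR adjusted p of 0.246. MMP2 therefore passed no test over the 15 libraries. With only guide 1 and empty-vector libraries in the fit, it was called higher in guide 1 (edgeR adjusted p = 0.00469). Without guide 2 replicate 2, MMP2 was called higher than empty vector in guide 1 (log2 fold change 1.33, edgeR adjusted p = 0.0125), in guide 2 (1.35, edgeR adjusted p = 0.0219) and in parental cells (1.19, edgeR adjusted p = 0.0284). Those calls were lost again when empty-vector replicate 3 was left out as well (edgeR adjusted p = 0.0632, 0.0816 and 0.0952).

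MMP9, the other gelatinase, lies at chr20:46008908-46016561 on the plus strand and was at 0 counts in each of the 3 guide 1 libraries. In guide 2 it had 0, 0.199 and 0.0145 CPM (12 counts in all), and with both guides 0.455, 0.535 and 0.393 CPM. Parental libraries had 0.684, 0.266 and 1.95 CPM, and empty-vector libraries 1.30, 1.88 and 18.5 CPM. Empty-vector replicate 3 alone held 991 of the 1167 empty-vector counts. Taking 3 counts over the group as the floor, MMP9 was at least 458-fold lower in guide 1 than in empty-vector cells (edgeR adjusted p = 0.0120), and at least 56.6-fold lower than in parental cells (edgeR adjusted p = 0.155). Without empty-vector replicate 3 the first bound was 102-fold, and without parental replicate 3 the second was 30-fold. Leaving out guide 1 replicate 2, whose depth counts in the floor, gave 272-fold and 33.6-fold. Against empty vector, guide 2 came to a log2 value of -6.72 (SE 1.40, edgeR adjusted p = 0.0253). For the line with both guides it was -4.00 (SE 1.15, edgeR adjusted p = 0.133) and for parental cells -2.97 (SE 1.08, edgeR adjusted p = 0.151). Guide 1 and guide 2 lay below the other 3 genotypes without overlap.

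MMP10, the stromelysin at chr11:102770503-102780628, and MMP1, the collagenase at chr11:102789920-102798160, are neighbours on the minus strand of chromosome 11. MMP10 had 0.350, 0.221 and 1.59 CPM in empty-vector cells and at most 0.195 CPM in any other library. Its 3 counts in guide 1 against 117 in empty-vector cells give a depth-scaled ratio of 46.0 (exact 95% interval 15.3 to 226, counting error only), with an edgeR adjusted p of 0.0126. Without empty-vector replicate 3 the ratio was 18.6 (5.83 to 95). In guide 2 it was called lower as well, with 8 counts and a log2 estimate of -3.96 (SE 0.906, edgeR adjusted p = 0.0291). MMP1 had 0.245, 0.184 and 0.970 CPM in empty-vector cells and between 0 and 0.199 CPM elsewhere, with 0.130, 0.125 and 0.125 CPM in the line with both guides. Guide 1 held a single MMP1 count against 76 in empty-vector cells, a ratio of 89.6 (exact 95% interval 15.6 to 3580, counting error only), with an edgeR adjusted p of 0.0171. Without empty-vector replicate 3 the ratio was 41.9 (6.83 to 1720), without guide 1 replicate 2 it was 53.2, and without guide 1 replicate 1, which held that count, MMP1 was at least 21.8-fold lower against the floor of 3 counts. MMP1 in guide 2 came to -2.63 on the log2 scale (SE 0.872), with an edgeR adjusted p of 0.118, guide 2 replicate 2 (0.199 CPM) lying inside the empty-vector range. For both genes empty-vector replicate 3 was the highest of all 15 libraries.

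PLAU, the urokinase gene at chr10:73909177-73917497 on the plus strand, showed the lowest adjusted p of the 9. Empty-vector libraries had 109.4, 115.0 and 255.9 CPM, and parental libraries 62.8, 64.9 and 111.8. Guide 1 had 35.0, 34.6 and 36.5 CPM, guide 2 had 44.4, 46.2 and 35.7, and the line with both guides 81.6, 76.9 and 71.4. The single-guide lines lay below all other libraries with no overlap, and overlapped with each other; the line with both guides fell inside the parental range. The means were 160.1 ± 83.0 CPM in empty-vector cells, 79.8 ± 27.7 in parental, 76.7 ± 5.12 with both guides, 42.1 ± 5.65 in guide 2 and 35.4 ± 0.979 in guide 1 (SD, n = 3 each). Against empty vector, the log2 fold change was -2.20 (SE 0.305, edgeR adjusted p = 0.00312) in guide 1 and -1.95 (SE 0.303, edgeR adjusted p = 0.00525) in guide 2. It was -1.09 (SE 0.295, edgeR adjusted p = 0.102) with both guides and -1.05 (SE 0.295, edgeR adjusted p = 0.0634) in parental cells. C10orf55, on the opposite strand, shares exonic bases with PLAU and reached at most 1.40 CPM in any library, and whether the counting used strand is not given in the sources used here.

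PLAUR, the urokinase receptor at chr19:43646095-43670547 on the minus strand, varied least. Its 15 libraries lay between 20.5 and 33.9 CPM, and the highest were empty-vector replicate 3 (33.9) and guide 2 replicate 2 (33.2). Genotype means ran from 23.0 ± 2.53 CPM in guide 1 to 27.9 ± 5.23 in empty-vector cells (SD, n = 3). The log2 fold change against empty vector was -0.29 (SE 0.148) in guide 1, -0.04 in guide 2, -0.06 with both guides and -0.17 in parental cells. No comparison of PLAUR was called, with edgeR adjusted p between 0.283 and 0.920 against empty vector. The receptor transcript thus stayed within a narrow range in libraries where that of urokinase went from 34.6 to 255.9 CPM.

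PLAT, the tissue activator at chr8:42175233-42207724 on the minus strand, had 119.4, 121.4 and 96.5 CPM in empty-vector cells and 124.7, 119.0 and 88.3 in guide 1. Guide 2 had 106.0, 36.8 and 97.6 CPM, parental cells 56.5, 99.9 and 76.3, and the line with both guides 82.0, 82.5 and 88.1. Guide 1 and empty-vector cells covered nearly the same range, with a log2 fold change of -0.03 (SE 0.309). In guide 2 the value was -0.50 (SE 0.310), in the line with both guides -0.44 (SE 0.310) and in parental cells -0.57 (SE 0.310), with edgeR adjusted p of 0.425, 0.602 and 0.343. No comparison of PLAT was called over the 15 libraries. Of the 2 activators, PLAU was thus called in the single-guide lines and PLAT was not; the difference between the genes was not tested.

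SERPINB2, the activator inhibitor at chr18:63871692-63903890 on the plus strand, had 2.21, 1.49 and 5.32 CPM in empty-vector cells and 0.191, 0.228 and 0.380 in guide 1. Guide 2 had 0.560, 5.38 and 0.260 CPM, parental cells 0.982, 0.611 and 4.31, and the line with both guides 0.715, 0.891 and 0.679. Every guide 1 library was below every empty-vector, parental and both-guides library, whereas guide 2 spanned the range, with replicate 2 at the top. In guide 1 the log2 fold change against empty vector was -3.50 (SE 1.06, edgeR adjusted p = 0.0711). Over the same libraries it was called by DESeq2 (adjusted p = 0.00189) and by edgeR without the filter on low counts (adjusted p = 0.0326). It was also called with only guide 1 and empty-vector libraries in the fit (edgeR adjusted p = 0.00632). With the replicate block the edgeR adjusted p was 0.105, and without empty-vector replicate 3 it was 0.272. With guide 2 replicate 2 left out the call was made in guide 1 (log2 fold change -3.51, edgeR adjusted p = 0.00435) and in guide 2 (-2.92, edgeR adjusted p = 0.0268).

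Set against empty-vector cells, guide 1 had 5 of the 9 genes called lower and none higher, where 4.57% of all tested genes were called lower and 1.31% higher. The 5 include MMP1 and MMP10, which entered the test mainly because they were high in empty-vector cells. Both are also in the counts of non-overlapping genes below for guide 1 and for both guides, and MMP10 is in both counts for guide 2. These counts therefore support nothing about the set. The 9 genes had a median log2 fold change of -2.20, with MMP9 at its bound as well, and all tested genes a median of 0.02. In 6 of the 9 genes each guide 1 library lay below each empty-vector library, which 18.1% of tested genes did, and MMP2 lay above, as a further 18.1% did. For guide 2 the calls were 4 lower and none higher (2.73% and 1.20% of all tested genes), and those 4 genes also lay below every empty-vector library, as 10.9% of tested genes did, with a median of -0.92 over the 9 genes and 0.03 over all tested genes. None was called by edgeR for the line with both guides, where 0.962% of all genes were. There 5 of the 9 had an unadjusted p under 0.05 in edgeR. The share of all tested genes with such a p is not given here, so that count is a description only. DESeq2 called 3 of the 9 (PLAU, MMP14 and MMP10) and 754 genes over all. In that line 7 of the 9 genes lay below every empty-vector library and MMP2 lay above, as 17.2% and 20.5% of tested genes did. Parental against empty-vector cells gave 1 of 9, MMP14, called lower (2.84% of all tested genes), with a median of -0.75 over the 9 genes. These 4 comparisons share the empty-vector libraries, including replicate 3.

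**Figure D2:**
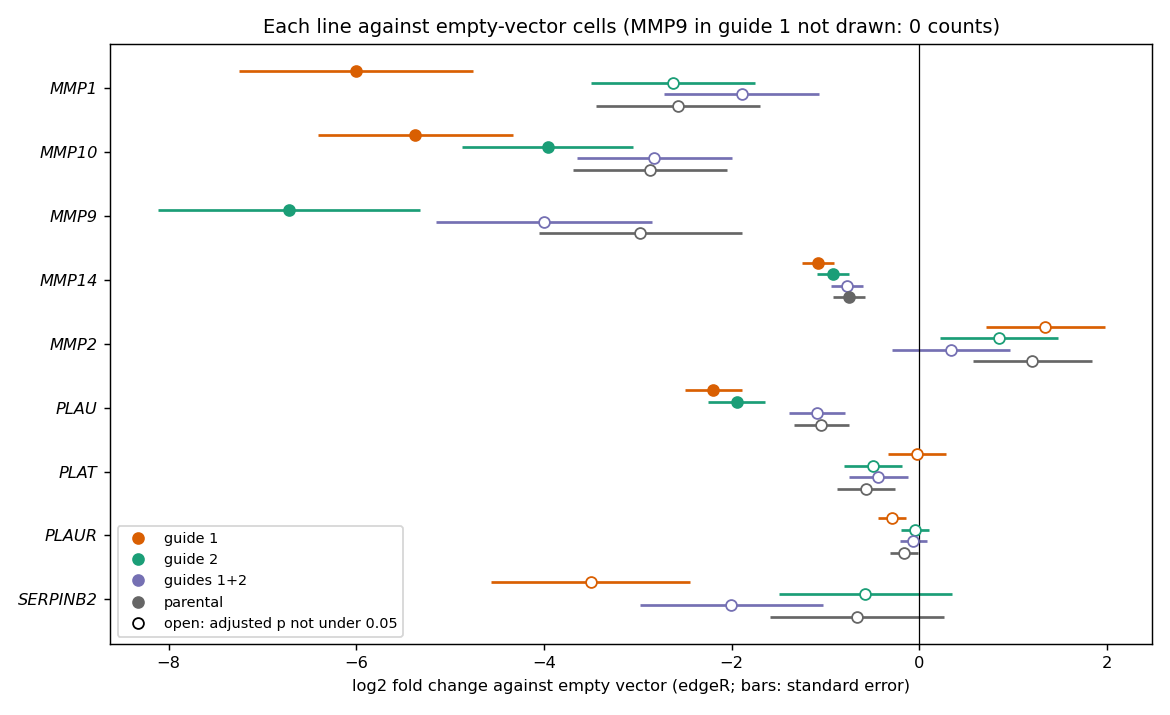
Log2 fold change of each gene against empty-vector cells (x axis, edgeR, bars 1 standard error) for guide 1, guide 2, guides 1 and 2, and parental cells; filled symbols mark an adjusted p under 0.05. MMP14 is filled in guide 1 (-1.08), guide 2 (-0.92) and parental cells (-0.75), PLAU in guide 1 (-2.20) and guide 2 (-1.95), and the guide 1 value of MMP9 is not drawn because all its libraries had 0 counts.

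With parental cells as the control, none of the 9 genes was called in any edited line by edgeR. The shares of all tested genes called were 0.149% for guide 1, 0.0516% for guide 2 and 0.195% for both guides, so few genes of any kind passed. For guide 1, 4 of the 9 had an unadjusted p under 0.05 in edgeR. DESeq2 called 3 of the 9 (PLAU, MMP9 and SERPINB2) and 657 genes over all. For PLAU the log2 fold change came to -1.15 (SE 0.297, edgeR adjusted p = 0.131) in guide 1, -0.90 (SE 0.295, edgeR adjusted p = 0.456) in guide 2 and -0.05 (SE 0.293, edgeR adjusted p = 0.971) with both guides. MMP14 gave -0.33 (SE 0.171, edgeR adjusted p = 0.288) in guide 1 and -0.17 (SE 0.171, edgeR adjusted p = 0.931) in guide 2. In guide 1, 6 genes lay below all parental libraries (MMP1, MMP9, MMP10, MMP14, PLAU and SERPINB2), as 12.8% of tested genes did; in guide 2 MMP9 and PLAU did, as did 5.56%. An unadjusted p under 0.05 was seen for 2 genes in guide 2 and for none with both guides. DESeq2 called none of the 9 in either, where it called 138 and 367 genes over all. The share of all tested genes with an unadjusted p under 0.05 is not given here, so those counts are a description only.

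When the 3 edited lines were averaged and set against the average of the 2 controls, 3 of the 9 genes were called lower, PLAU, MMP9 and MMP14, where 1.19% of all tested genes were. For PLAU the log2 difference was -1.22 (SE 0.186, edgeR adjusted p = 0.00920) and for MMP14 -0.55 (SE 0.109, edgeR adjusted p = 0.0289). For MMP9 the fit gave -6.00 (SE 0.974, edgeR adjusted p = 0.0174). That value averages in guide 1, which had 0 counts, so its size is not a measured difference. The mean MMP9 level was 0.178 CPM in the edited libraries and 4.09 CPM in the control libraries. No gene of the 9 separated all 9 edited libraries from all 6 control libraries. Between edited lines no gene of the 9 was called: the lowest edgeR adjusted p was 0.317 for guide 1 against guide 2 (SERPINB2), 0.180 for both guides against guide 1 (PLAU) and 0.590 for both guides against guide 2 (PLAU), where 0.0401%, 0.275% and 0.149% of all tested genes were called. In the same order, 2, 3 and 1 of the 9 genes had an unadjusted p under 0.05 in edgeR, and DESeq2 called 0, 2 and 0. Over all genes DESeq2 called 204, 384 and 150, and the share with such an unadjusted p is not given here. The higher PLAU level of the line with both guides (71.4 to 81.6 CPM against 34.6 to 46.2 in the single-guide lines) was not called by edgeR over the 15 libraries. Against guide 1 alone, PLAU was called by DESeq2 (adjusted p = 0.0195) and by edgeR with only those groups in the fit (adjusted p = 6.45e-05).

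Leaving out each library in turn showed which calls rest on a single library. PLAU stayed called in all 15 such fits in guide 1, in guide 2 and in the average of the edited lines, and MMP14 in all 15 in guide 1 and in 14 of 15 in guide 2. With only guide 2 and empty-vector libraries in the fit, however, none of the 9 was called in guide 2, PLAU having an edgeR adjusted p of 0.125 and MMP14 of 0.176. Without empty-vector replicate 3, the library with the highest PLAU, MMP14, MMP9, MMP10 and MMP1, the guide 1 difference of PLAU was -1.68 (edgeR adjusted p = 0.00341) and of MMP14 -0.80 (edgeR adjusted p = 0.00815), and in guide 2 they were -1.43 (edgeR adjusted p = 0.0113) and -0.64 (edgeR adjusted p = 0.0238). Without that library MMP10 and MMP1 were no longer called in guide 1 (edgeR adjusted p = 0.0528 and 0.0816), MMP9 and MMP10 no longer in guide 2 (0.0770 and 0.153), and MMP14 no longer in parental cells (0.0757). Calls were also lost without single libraries of the line itself: MMP10 and MMP1 in guide 1 without replicate 1 or 2, MMP9 in guide 1 without replicate 2, MMP9 and MMP10 in guide 2 without replicate 1 or 3, MMP14 in guide 2 without replicate 3, and MMP14 in parental cells without replicate 1 or 2. In the average of the edited lines, MMP9 was lost without parental replicate 3, and MMP14 in 8 of 15 fits, leaving 7 with a call. Without parental replicate 2 or guide 1 replicate 3, the calls in guide 1 and in guide 2 against empty vector were 5 and 4 genes, as with all libraries. Without guide 2 replicate 2 more calls were made. Against empty vector they were 7 of 9 genes in guide 1, 7 in guide 2, 4 with both guides and 6 in parental cells. In guide 1 against parental cells 3 were called. MMP2 was called higher in guide 1, guide 2 and parental cells against empty vector, and all the others lower. With 1 library left out, calls over all genes reached at most 3236, 2581, 1196 and 2484 against empty vector, in the same order. They reached at most 2591 in guide 1 against parental cells. With all 15 libraries these were 1026, 687, 168, 762 and 26. The counts for the 9 genes are therefore a description only. With both empty-vector replicate 3 and guide 2 replicate 2 left out, a setting chosen after the data were seen, 6, 5, 1 and 1 genes were called against empty vector in guide 1, guide 2, both guides and parental cells, and 5 and 2 against parental cells in guide 1 and guide 2. Over all genes, 1646, 1401, 369 and 1310 were then called against empty vector in that order, and 2626 and 1165 against parental cells. In that setting PLAU was called against parental cells in guide 1 (edgeR adjusted p = 0.00275) and guide 2 (edgeR adjusted p = 0.0159).

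**Figure D3:**
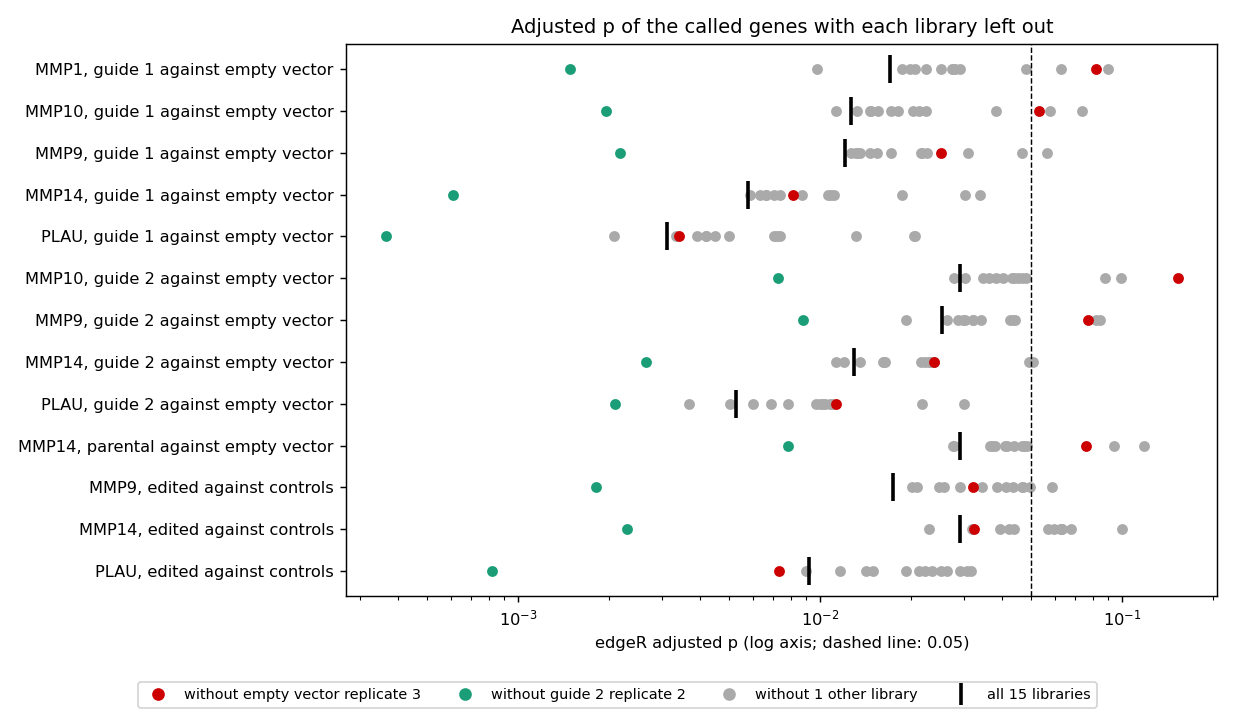
EdgeR adjusted p (x axis, log scale, dashed line at 0.05) of each called gene and comparison, with all 15 libraries (black mark) and with 1 library left out (dots). The PLAU dots for guide 1, guide 2 and the average of the edited lines all lie left of the line, while MMP10 in guide 2 moves to 0.153 without empty-vector replicate 3 (red).

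The genes also differed in how their levels lay against the epithelial markers of a library, which is given as a description and was not tested. Guide 2 replicate 2, the library with the highest epithelial sum, had the lowest MMP2 and PLAT and the highest SERPINB2 of all 15. Its PLAU (46.2 CPM) lay within the values of the other edited libraries and its MMP14 (151.7 CPM) just above them. Within a genotype, the library with the highest epithelial sum had the lowest MMP2 in 4 of 5 genotypes and the lowest PLAT in 4 of 5, and the highest MMP1 in 4 of 5. These are ranks among 3 libraries, and the share of all tested genes with such ranks was not computed. The sums were close together in guide 1 (2127 to 2268 CPM) and with both guides (4236 to 4850 CPM). The MMP1 ranks also rest on few counts (123 over all libraries). PLAU was highest there in 3 genotypes and lowest in 2, and MMP14 was highest in 3 and lowest in 1. In guide 2, PLAU was at 46.2 CPM in replicate 2, where CDH1 was at 91.4 CPM, and lower in the libraries with CDH1 near 0. This comparison rests on a single library, and a link of PLAU with epithelial state was not tested.

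**Figure D4:**
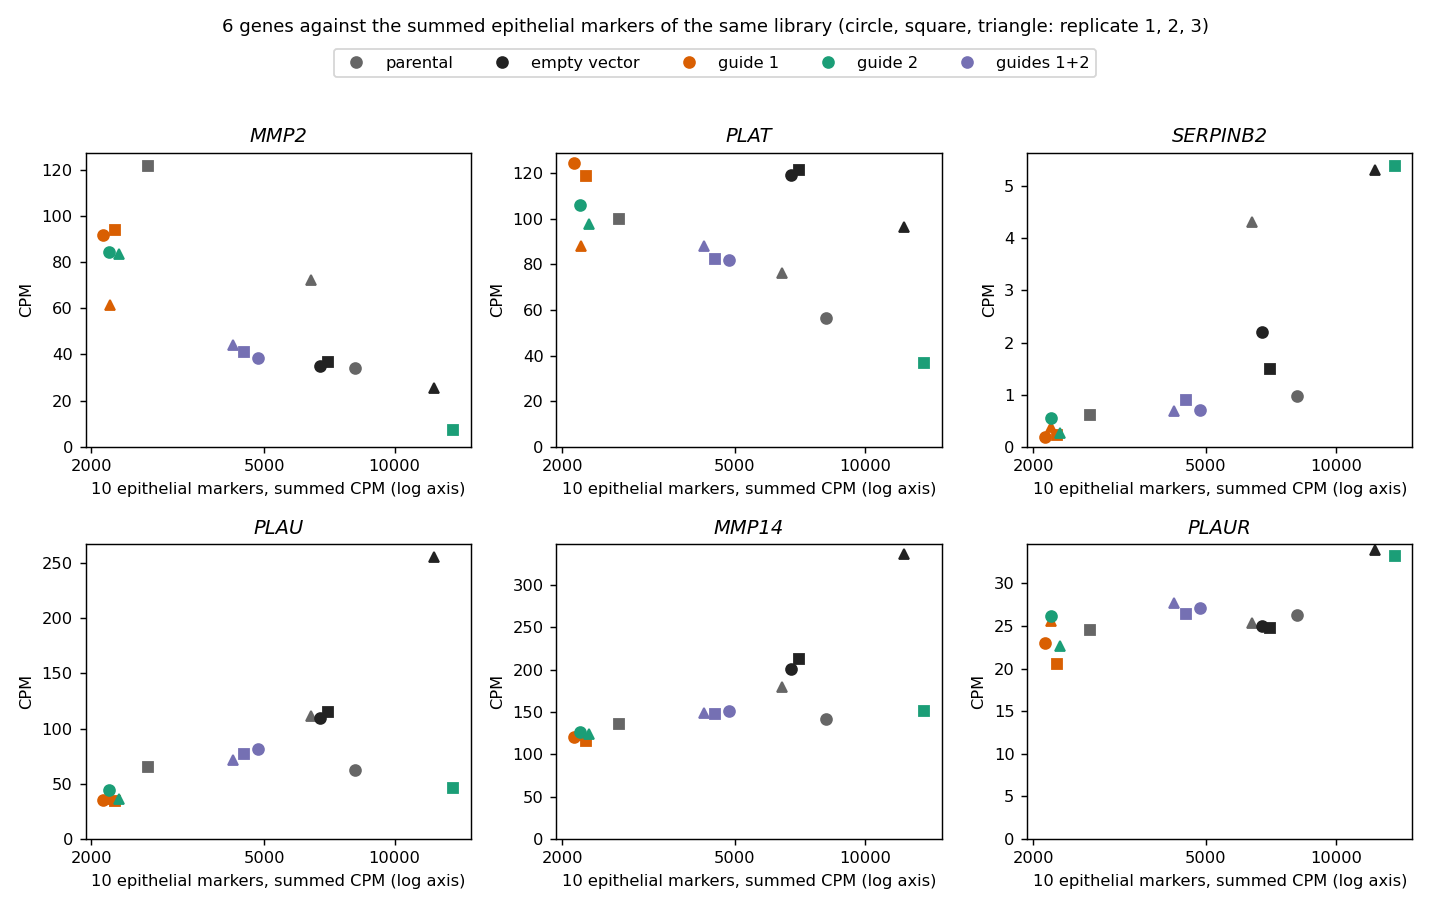
CPM of 6 genes (y axes, linear) against the summed CPM of 10 mammary epithelial markers in the same library (x axes, log scale); colours give the genotype and symbols the replicate. Guide 2 replicate 2 (sum 13650 CPM) has the lowest MMP2 (7.30 CPM) and PLAT (36.8 CPM), while its PLAU (46.2 CPM) stays beside the other guide 2 libraries.

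For the 7 genes with a mean of at least 1 CPM, the tested genes with the most similar profile were ranked by Pearson r of log2 CPM over the 15 libraries, as a description in which all points share genotypes and libraries. PLAU was closest to ASAP2 (r = 0.977), MMP9 (0.968) and ADAM19 (0.963), and MMP9 to PLAU, IVL (0.961) and CREG2 (0.958). MMP14 was closest to TNK2, MYO5A (both 0.965) and LUZP1 (0.963). The profile of MMP2 was nearest to TMCO3 (0.987), SH3RF3 and PRKCA (both 0.978), and that of PLAT to GOLGA2 (0.987), GABARAPL1 (0.976) and FAM120B (0.975). PLAUR was nearest to DERL1 (0.936), YKT6 (0.923) and DIAPH1 (0.920), and SERPINB2 to NET1, EPHB3 (both 0.952) and CA2 (0.946). Of the 7 genes ranked, PLAU and MMP9 were the only pair among each other's 3 nearest; MMP10, too scarce to be ranked, had r = 0.963 with MMP14.

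Of the other genes of the same pathways, most of those tested were not called, as was so for all tested genes. Of the 4 tested genes for membrane serine proteases and their inhibitors, however, 3 were called lower in guide 1. Against empty vector, 4.57% of all tested genes were called lower and 1.31% higher in guide 1, and 2.73% and 1.20% in guide 2. In either direction 0.962% were called with both guides, and 762 genes in parental cells. In the test of any difference 4.30% were called. Of 18 other matrix metalloproteinases 11 were tested, and MMP16, a membrane-type enzyme, was called higher than empty vector (mean 2.77 CPM) in guide 1 (5.74 CPM), guide 2 (6.77) and parental cells (7.37), opposite in direction to MMP14. Among 8 inhibitors and cofactors of metalloproteinases, 7 were tested and TFPI2 alone was called. It was higher in guide 1 (edgeR adjusted p = 0.0499, at the threshold) and guide 2 (edgeR adjusted p = 0.0154). TIMP1 gave an edgeR adjusted p of 0.402 in the test of any difference. Of 16 other plasminogen system genes 13 were tested, and SERPINI1, an inhibitor of tissue activator, was called in the test of any difference (edgeR adjusted p = 0.0366) and SERPINF2, which encodes the plasmin inhibitor, was called lower in guide 2. PLG, the gene for plasminogen itself, had 0 counts in every library. Of 6 membrane serine proteases and their inhibitors 4 were tested. SPINT1, an inhibitor of matriptase, was called lower than empty vector in every other genotype, with log2 fold changes of -1.55 in guide 1, -1.55 in guide 2, -1.14 with both guides and -1.20 in parental cells, and ST14 (matriptase) and PRSS8 (prostasin) were called lower in guide 1, which makes 3 of 4 there, where 4.57% of all tested genes were called lower.

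Of 7 ADAM sheddases, which release membrane-bound growth factors, all were tested; ADAM19 and ADAM17 were called lower in guide 1 (4.57% of all tested genes) and ADAM19 and ADAM10 in guide 2 (2.73%), and 3 of the 7 were called in the test of any difference (4.30%). None of 10 cathepsins and cystatins was called by edgeR in any comparison. In guide 1 against empty vector 3 had an unadjusted p under 0.05 and DESeq2 called 2. In each of the other 3 comparisons with empty vector these counts were 1 and 0. Over all genes DESeq2 called 1937 in guide 1, and 1373, 754 and 1604 in guide 2, both guides and parental cells. The share of all tested genes with such an unadjusted p is not given here. Among 14 AP-1 and ETS factors, which act on promoters of this family, ETS2 was called lower in guide 1 (log2 fold change -0.77, edgeR adjusted p = 0.00652) and with both guides (-0.69, edgeR adjusted p = 0.0272). FOSL1 was called higher in guide 2 (log2 fold change 0.86, edgeR adjusted p = 0.00460) and in parental cells (0.56, edgeR adjusted p = 0.0307), all against empty vector. None of the other 12 factors was called by edgeR against empty vector. These single calls among 14 factors are to be read beside the shares of all tested genes given above.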

How the data were processed

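Poly(A) RNA from 15 MCF-10A libraries (5 genotypes, 3 replicates each) was purified on RNeasy columns and made into libraries with a KAPA mRNA HyperPrep kit, per the labels' protocols. Reads were handled with Trim Galore 0.6.0 and STAR 2.7.8a on GRCh38, per the submitters' processing notes; the counter, its annotation and its use of strand are not given in the sources used here. The authors deposited whole-number counts per gene, unnormalized, and CPM. The deposited CPM equal counts divided by the library total, to within 4.91e-11, and are printed for single genes.

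Counts were tested with edgeR 4.0.16 in R 4.3.3: genes kept by filterByExpr (17457 of 60721), TMM scaling (factors 0.973 to 1.02), a quasi-likelihood fit of group means over all 15 libraries with 10 residual degrees of freedom, two-sided tests, and Benjamini-Hochberg adjustment over all tested genes, with calls at an adjusted p under 0.05. A standard error here is the size of the log2 fold change over the root of its F statistic. The procedure was tested on simulated data. Alternatives were RLE scaling, no filter, a replicate block, DESeq2 1.42.0, only the compared groups, and each library left out; leaving out 2 libraries together was added after the data were seen. Ratios of low counts carry exact 95% intervals, and 0 counts a floor of 3 counts, for counting error only: with no molecular identifiers, reads cannot be taken as independent molecules.

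The members and gene lists were chosen with earlier results of these data known. Named genes are the 9 members, NF1, of each other list at most 4 genes called in the test of any difference or else the 2 of highest mean CPM, and the 3 nearest profiles of each member (log2 CPM, prior count 2). TFPI2, SERPINF2, PLG, ST14, PRSS8 and the markers CDH1, TP63 and DCN are named outside that rule and were chosen after their values were seen. Symbols matched 60357 identifiers and GENCODE 29 positions 58503. Figures were drawn with matplotlib 3.10.9.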

Additional observations from a re-analysis of the deposited data

How the results depend on the processing

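Of 354 single-gene values recomputed under other settings, 300 kept their direction and their side of the threshold, 40 crossed into a call, 9 lost one and 5 changed sign; with 1 library left out, these numbers were 858, 28, 30 and 14 of 930. Every change of sign was in an uncalled difference. Over the 15 libraries, edgeR called 4 of the 9 genes in any difference, 5 in guide 1, 4 in guide 2, 0 with both guides and 1 in parental cells against empty vector, and 3 in the average; over all genes these counts were 751, 1026, 687, 168, 762 and 263. All genes called were 26, 9 and 34 in guide 1, guide 2 and both guides against parental cells, 7 in guide 1 against guide 2, and 48 and 26 in both guides against guide 1 and guide 2, with 0 of the 9 in each. RLE scaling moved none of these counts by over 1.5 times. In all the lists of counts below, the cause of a change was not tested.

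DESeq2 called 3 of the 9 with both guides and 3 in parental cells against empty vector, 3 in guide 1 against parental cells, 2 in both guides against guide 1 and 6 in the average. Over all genes it called 2672 in any difference, 1937, 1373, 754 and 1604 in guide 1, guide 2, both guides and parental cells against empty vector, 657, 138 and 367 in the 3 lines against parental cells, 204, 384 and 150 between lines, and 928 in the average. Without a filter on low counts, 2 of the 9 were called with both guides and 2 in parental cells, and all genes came to 84, 17 and 60 against parental cells and 23, 82 and 51 between lines. With only the compared groups in the fit, 0 of the 9 were called in guide 2, 6 with both guides and 0 in parental cells against empty vector, and 5 in both guides against guide 1, while all genes came to 2608, 13 and 3054 against empty vector, 44, 1 and 147 against parental cells, and 0, 1252 and 2 between lines.

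No pairing of libraries by replicate number was seen: deviations of same-numbered libraries had a mean correlation of -0.05 (from -0.75 to 0.28 over 30 pairs). Libraries that stood apart weigh heavily in these deviations, so the check cannot show whether same-numbered cultures were handled together. With the replicate number as a block, 2 of the 9 were called in guide 2 against empty vector, and all genes came to 299 in any difference, 567, 375, 69 and 400 against empty vector, 9 and 22 in guide 1 and both guides against parental cells, 20 and 2 in both guides against guide 1 and guide 2, and 111 in the average. Without empty-vector replicate 3 and guide 2 replicate 2 together, 1 of the 9 was called with both guides against empty vector, 5 and 2 in guide 1 and guide 2 against parental cells, 3 and 1 in both guides against guide 1 and guide 2, and 6 in the average. All genes then came to 2886, 1646, 1401, 369 and 1310 for any difference and against empty vector, 2626, 1165 and 548 against parental cells, 27, 929 and 392 between lines, and 2071 in the average. Signs turned in that setting for PLAUR with both guides (0.12) and in parental cells (0.015), SERPINB2 in parental cells (0.045) and PLAT in the average (0.029), and with the block for PLAU in both guides against parental cells (0.0054).

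With 1 library left out, the number of the 9 called ran from 2 to 7 in any difference, 2 to 7 in guide 1, 1 to 7 in guide 2, 0 to 4 with both guides and 0 to 6 in parental cells against empty vector, 0 to 3 in guide 1 against parental cells, 0 to 1 in both guides against guide 1, and 1 to 6 in the average. The highest numbers came without guide 2 replicate 2. All genes called ran from 198 to 4227 in any difference, 215 to 3236, 170 to 2581, 21 to 1196 and 145 to 2484 against empty vector, 6 to 2591, 2 to 1064 and 4 to 467 against parental cells, 2 to 593, 4 to 827 and 2 to 327 between lines, and 59 to 3213 in the average. Log2 differences whose sign turned ran, against empty vector, from -0.14 to 0.12 for PLAT in guide 1, -0.22 to 0.13 for PLAUR and -2.92 to 0.13 for SERPINB2 in guide 2, -0.16 to 0.11 for PLAUR with both guides, and -0.26 to 0.0056 for PLAUR and -1.94 to 0.047 for SERPINB2 in parental cells. In the average they ran from -0.11 to 0.035 for PLAUR and -0.13 to 0.068 for PLAT, and in both guides against parental cells from -0.19 to 0.27 for PLAU. The depth leaves MMP1 and MMP10 in the single-guide lines at 1 to 13 counts a genotype, near the floor of 3 counts.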
